A study of Drosophila melanogaster with 24 samples.

Results

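Wide promoters are the promoter-annotated transcription start regions of early Drosophila embryos in which the start base was called at places far apart in different libraries. A region entered the set when the merged start region, as deposited, was at least 250 bp from its start to its end. Of 18098 promoter regions, 1108 met this rule and 16990 did not, out of 45839 start regions in all. Each single call is a 150 bp window centred on the called start base, so a width of 250 bp means that the outermost called bases lay 100 bp apart. Width, span and the number of calls that set them chose these promoters and are given as description.

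The starts were mapped by csRNA-seq, which sequences the capped ends of short RNAs of 18 to 65 nt and so reads nascent initiation. Dechorionated whole embryos kept at 25 °C gave total RNA at 0-2, 2-4, 4-6 and 6-8 h. The groups were tinmDPE embryos of strain F3, tinmDPE embryos of strain M6 and tinWT embryos of strain Cas9, with 1 csRNA library for each strain and window, 12 in all. The labels spell no further allele, and tinmDPE is read here as tin with a mutated DPE. Because tinWT was represented by 1 strain, genotype and strain cannot be told apart, and with 1 line per strain the p-values measure only the spread between these libraries.

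In flies, RNA polymerase II promoters range from focused ones, where a TATA box, initiator or downstream promoter element (DPE) fixes a single start base, to dispersed ones with many starts, often with a DNA replication-related element (DRE). Genes loaded into the egg by the mother and genes first transcribed by the zygote can use different core promoters, and a gene active in both phases may start at different bases. The gene tin encodes a homeodomain factor of the dorsal mesoderm and heart, and its core promoter carries a DPE.

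Total tags per library were 2632187 to 10553406, and between 485 (tinWT, 0-2 h) and 860 (F3, 4-6 h) of the 1108 wide promoters were called in a library. Median levels of a list of early zygotic genes were highest at 2-4 h in each strain and those of later zygotic genes at 6-8 h, in the order of the labels. Of 6 follicle and eggshell genes 2 had a promoter region, with calls in F3 at 4-6 h alone and median levels of -1.55 to -0.85 over the libraries. The tin promoter itself is 204 bp wide, so it is no member, and its level on the deposited regularized log2 scale was lower in both tinmDPE lines than in tinWT at each window (4.76 and 4.66 against 5.48 at 0-2 h; 7.12 and 6.96 against 7.45 at 6-8 h). The tinWT 2-4 h library stood apart. Across the 1108 wide promoters its levels correlated with the tinmDPE mean at r = 0.928 for 2-4 h and r = 0.934 for 4-6 h, while the other 3 tinWT libraries correlated best with their own window (r = 0.949, 0.947 and 0.965). Counts of changed levels and the shared window order are given with and without it where it moves them, and all position shares at 2-4 h include it.

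The wide promoters belonged to 1034 genes, and 66 genes had more than 1. The median width was 281 bp (range 250 to 574 bp) and the median distance between the outermost called bases was 131 bp (100 to 371 bp). A wide promoter held a median of 4 distinct start positions (2 to 12), called in a median of 8 libraries. Joined across gaps of at most 25 bp, these positions fell into 2 clusters in 541 promoters, 3 clusters in 429 and 4 clusters in 110. In 368 of them (33.2%) 1 base took over 50% of the calls. Only 6 of the promoters had a library with several positions, so the spread of called bases lay almost entirely between libraries. Starts spread around a called base within 1 library cannot be seen in these positions.

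The width often rested on a single library. In 685 of the 1108 promoters (61.8%) the outermost positions were under 100 bp apart once 1 library was left out. CG10321, one of 26 promoters of exactly 250 bp, was called at the same base in 11 libraries and at +100 bp in the tinWT 4-6 h library alone. CG10011, also at 250 bp, took 5 positions, with +61 bp in F3 at 2-4 h and in tinWT at 2-4, 4-6 and 6-8 h. Just outside the rule, CG5787 and CG3386 at 249 bp had their outermost calls at -99 bp, and there were 18 promoters of that width.

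The start bases that the largest shifts turn on are shown in the reference sequence (RefSeq Release 6, the dm6 build), 5′ to 3′ on the transcribed strand, with the called start base in capitals. CG6325 is shown because all its calls used the same 2 bases, and CG42797 and CG10898 because an upstream base of the earlier libraries lies far from their commonest base. The antisense RNA asRNA:CR44030 is shown because its bases split by genotype.
CG6325 upstream base, 5 libraries of 0-2 and 2-4 h, chr3R:10407280-10407309, minus strand: tagtatcgaaccaacAtagatttttgttcc
CG6325 downstream base, 7 libraries, chr3R:10407130-10407159, minus strand: ctggcgctacacgccAgtcgatcagaggcg
CG42797 base of M6 at 0-2 and 2-4 h, chrX:9608947-9608976, plus strand: cattgacatctggtcAcattgcactagacc
CG42797 commonest base, 7 libraries, chrX:9609196-9609225, plus strand: cgggggcggggtggcAgtggtggttgtgga
CG10898 base of F3 at 0-2 h and tinWT at 4-6 h, chr3R:11557753-11557782, plus strand: tgctgcgccaagaacAaagtggccactctg
CG10898 commonest base, 4 libraries, chr3R:11557889-11557918, plus strand: ataaacggagctgttAagtaccgcgacgag
asRNA:CR44030 tinmDPE base, chr4:959735-959764, plus strand: aaacatgcacggaatAagtgttcggtcgac
asRNA:CR44030 tinWT 2-4 h base, chr4:960017-960046, plus strand: taaggatggcaaaatAgggatggtatggca

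Many wide promoters did not point into the gene they are named for. Their strand matched that of the named gene in 706 and was opposite in 395, or 35.9% of those matched, against 28.5% (4824) of other promoters. The 2 kinds had unlike calls and levels. Wide promoters on the gene strand were called in a median of 9 libraries at a median level of 4.33, and their commonest base lay within 25 bp of an annotated 5′ end in 40.9%. Those on the opposite strand were called in a median of 5 libraries at a median level of 2.38, and 1.27% lay that close to an annotated 5′ end of their own strand. Other promoters differed by strand as well. On the gene strand they had a median of 9 libraries, a median level of 4.80 and a share of 60.9% within 25 bp. On the opposite strand these values were 2 libraries, 0.897 and 0.663%.

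Of all wide promoters, 466 (42.1%) contained no annotated 5′ end, 589 contained 1 and 53 (4.78%) at least 2, a share that was 2.25% among other promoters. The upstream outermost position lay within 25 bp of an annotated 5′ end in 32.3% and the downstream one in 8.39%, and both ends did so in 11 promoters. Alternative annotated starts thus lay at both ends of few of them. Chromosome 4, the small heterochromatin-rich chromosome, carried 24 wide promoters (2.17%), against 1.17% of other promoters.

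The 6 widest promoters show how the calls were spread. Tm1, which encodes a tropomyosin, had the widest region (574 bp, on the strand opposite the gene), with 6 of 12 libraries at 1 base and the others between -210 and +105 bp from it. Usp20-33, which encodes a deubiquitinase, was called at its annotated start in 8 libraries, at +261 bp in F3 2-4 h, and at +356 and +126 bp in tinWT at 2-4 and 4-6 h. CG10286 was called upstream of or at its annotated start at 0-2 h (-116 bp in F3 and -84 bp in M6), while tinWT alone reached +255 bp at 6-8 h. In both genes the far downstream bases lay inside annotated coding exons or an intron. IntS6 (an Integrator subunit), MFS14 (a membrane transporter) and CG4768 were on the strand opposite the gene and were called in 9, 10 and 9 libraries.

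Early libraries used upstream bases more than later ones did. Relative to the median position of each promoter, the mean position at 0-2 h was -10.4 bp in F3, -5.06 bp in M6 and -13.3 bp in tinWT. At 2-4 h the means were 2.72, -0.696 and 10.2 bp in the same strains, at 4-6 h 4.94, 4.39 and 7.18 bp, and at 6-8 h -0.41, 0.888 and 1.34 bp. Each strain thus had its most upstream mean at 0-2 h. Called bases at least 50 bp upstream of the median made up 20.4%, 17.1% and 19.6% of calls at 0-2 h in F3, M6 and tinWT, and downstream ones 10.1%, 12.7% and 7.84%. At 2-4 h downstream calls made up 17.8%, 13.7% and 23.7%. The depth was also lowest at 0-2 h in each strain, and its part in these shares was not tested.

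Within each strain, more promoters moved downstream than upstream over the whole course. Among promoters called at both ends of the course, the position at 6-8 h lay at least 50 bp downstream of that at 0-2 h in 135 of 423 in F3 (31.9%), 104 of 433 in M6 (24%) and 116 of 390 in tinWT (29.7%). It lay at least 50 bp upstream in 53, 71 and 63. Within 10 bp were 161, 180 and 141. In all, 44.4%, 40.4% and 45.9% moved by at least 50 bp in F3, M6 and tinWT. For 2-4 against 0-2 h the downstream shares were 29.1%, 21.7% and 39.4%, the last including the tinWT library that stood apart. On the strand of the named gene the 6-8 against 0-2 h balance was 115 downstream to 43 upstream in F3, 90 to 55 in M6 and 107 to 53 in tinWT. On the opposite strand it was 19 to 10, 12 to 16 and 8 to 10, so there the direction differed between strains.

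**Figure D1:**
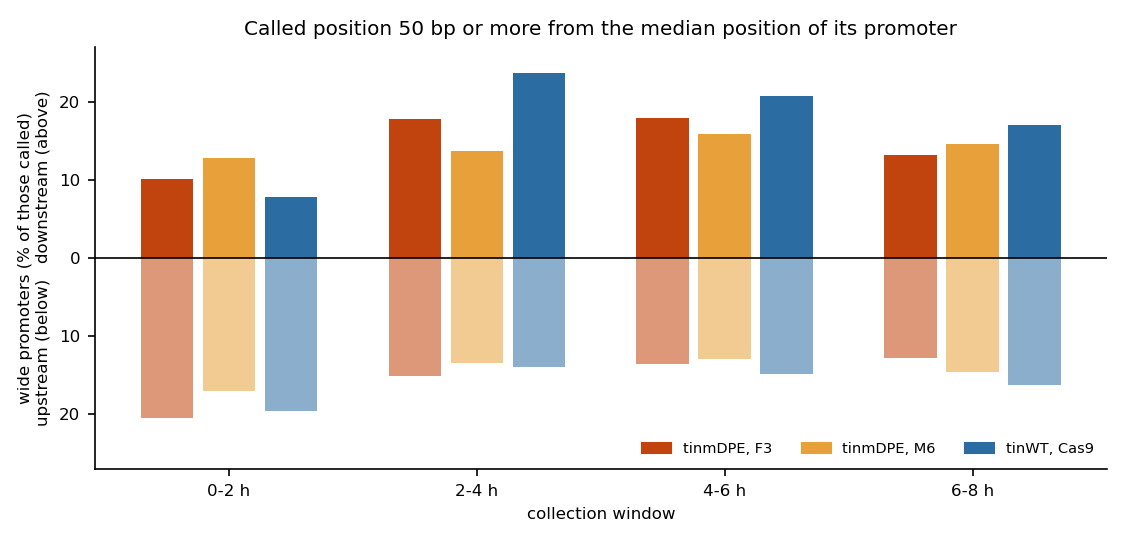
Percent of the wide promoters called in each library whose base lay at least 50 bp from the median position of its promoter. Upstream shares are drawn below and downstream shares above the axis, by collection window (x axis) and strain (colour). At 0-2 h the upstream share exceeded the downstream share in F3 (20.4% against 10.1%), M6 (17.1% against 12.7%) and tinWT (19.6% against 7.84%).

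Individual promoters seldom moved alike in all 3 strains. Of 217 called at 0-2 and 6-8 h in every strain, 15 moved at least 50 bp downstream in all 3, 6 moved upstream in all 3, 23 stayed within 10 bp in all 3, and 13 moved by at least 50 bp in opposite directions in different strains. The 15 downstream ones were Ars2, CG10898, CG13807, CG1542, CG2218, CG6325, CG8602, CRAT, CTPsyn, Lsm11, Nmd3, Rrp46, Tango14, nom and ttk. The 6 upstream ones were CG8173, Grip84, Hmgs, Not11, ari-1 and kra. Among them, Ars2 acts in nuclear RNA processing, Rrp46 in the RNA exosome, CTPsyn in nucleotide synthesis, and ttk encodes a transcriptional repressor. These genes were picked out by their shifts.

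Strains also differed in position within a window. Between the tinmDPE lines F3 and M6 the called base differed by at least 50 bp in 27.3% to 36.6% of promoters called in both, depending on the window. Against tinWT the shares were 27.8% to 51.0%, the highest for F3 at 4-6 h. At 4-6 h the tinWT library called 521 wide promoters, against 860 in F3 and 841 in M6. The part of this in the shares was not tested. All 3 strains shared exactly the same base in 23.3%, 17.5%, 15.9% and 25.2% of the promoters called in all 3 at 0-2, 2-4, 4-6 and 6-8 h. They lay at least 100 bp apart in 20.8%, 38.3%, 43.3% and 32.5%. Between consecutive windows of 1 strain, 36.1% or more of the promoters moved by at least 50 bp, so the strains of a window and the windows of a strain gave overlapping shares.

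The exact tests of position could be run on the 124 wide promoters called in all 12 libraries, within 2589 such start regions. With windows permuted within each strain (two-sided exact permutation test, 576 assignments, smallest possible p = 0.00174), 0 of 124 passed after Benjamini-Hochberg adjustment over the 2589, where the background was 0.0%. At an unadjusted p under 0.05 there were 8, against 42 (1.62%) of all regions tested. With strains permuted within windows 0 passed as well (background 0.0%), with 2 at the unadjusted threshold against 13 (0.502%). With genotype permuted, 0 passed (background 0.0%) and 9 met it, against 46 (1.78%). The rule selected widely spread positions, so these shares are not compared. A window shift shared by 3 strains could not reach the adjusted threshold at any size in so few libraries unless many other regions shifted too.

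Among those 124 promoters, the 2 windows with the most upstream and the most downstream mean were in the same order in all 3 strains in 47. In 30 of the 47 the 0-2 h window was the most upstream, and in 7 it was the most downstream. Without the tinWT 2-4 h library the count was 59, with 0-2 h most upstream in 33 and most downstream in 9. There a pair of windows that included 2-4 h needed agreement of F3 and M6 alone. This looser criterion can raise the count, so 59 is not set against 47.

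CG6325, CG42797, CG10898, Ars2, Not11 and btl were picked for a large window shift in an order shared by the strains. Any lack of overlap and the unadjusted p there are therefore description. CG6325, on chromosome 3R, used 2 bases that lie 150 bp apart. The upstream base, 9 bp before the annotated start, was called in all 3 strains at 0-2 h and in M6 and tinWT at 2-4 h. The downstream base, 141 bp inside the 5′ UTR, was called in F3 at 2-4 h and in all 3 strains at 4-6 and 6-8 h. The windows 0-2 and 6-8 h did not overlap (exact permutation p = 0.0833, adjusted p = 1). At CG42797, annotated in RefSeq as Hecw, a HECT-type ubiquitin ligase gene, the bases at 0-2 h were at -44 bp in F3, -249 bp in M6 and -274 bp in tinWT. At 2-4 h they were at 0, -249 and -133 bp. At 4-6 and 6-8 h all 6 libraries used the same base, 265 bp inside the 5′ UTR (exact permutation p = 0.0417, adjusted p = 1).

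CG10898 was called at -136 bp in F3, -157 bp in M6 and -142 bp in tinWT at 0-2 h, all just upstream of its annotated start. At 2-4 h the bases were at -3, 0 and -27 bp, and at 4-6 h at 0, 0 and -136 bp. At 6-8 h they were at +55, 0 and +76 bp, all in the annotated 5′ UTR and all downstream of every 0-2 h call (exact permutation p = 0.0208, adjusted p = 1). Ars2 followed the same direction, with -191, -164 and -164 bp at 0-2 h and 12, 0 and 0 bp at 6-8 h in F3, M6 and tinWT (exact permutation p = 0.0486, adjusted p = 1). At 2-4 and 4-6 h the strains of Ars2 disagreed, with tinWT at 0 and then -137 bp while F3 went through -143 and -19 bp.

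Not11, which encodes a subunit of the CCR4-NOT deadenylase complex, moved the other way. Its 6 calls at 0-2 and 2-4 h lay within 2 bp of each other, and its calls at 6-8 h were at -171 bp in F3 and at -150 bp in M6 and tinWT (exact permutation p = 0.0625, adjusted p = 1). The region named for btl, the FGF receptor of tracheal cells, lies on the strand opposite the gene and had 12 different bases in 12 libraries. The order of its extreme windows was shared by the strains, yet the strains lay far apart within a window, as at 2-4 h with -307 bp in F3, -107 bp in M6 and -269 bp in tinWT. For btl the zero is the tinWT 0-2 h base, since no base was called more than once.

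**Figure D2:**
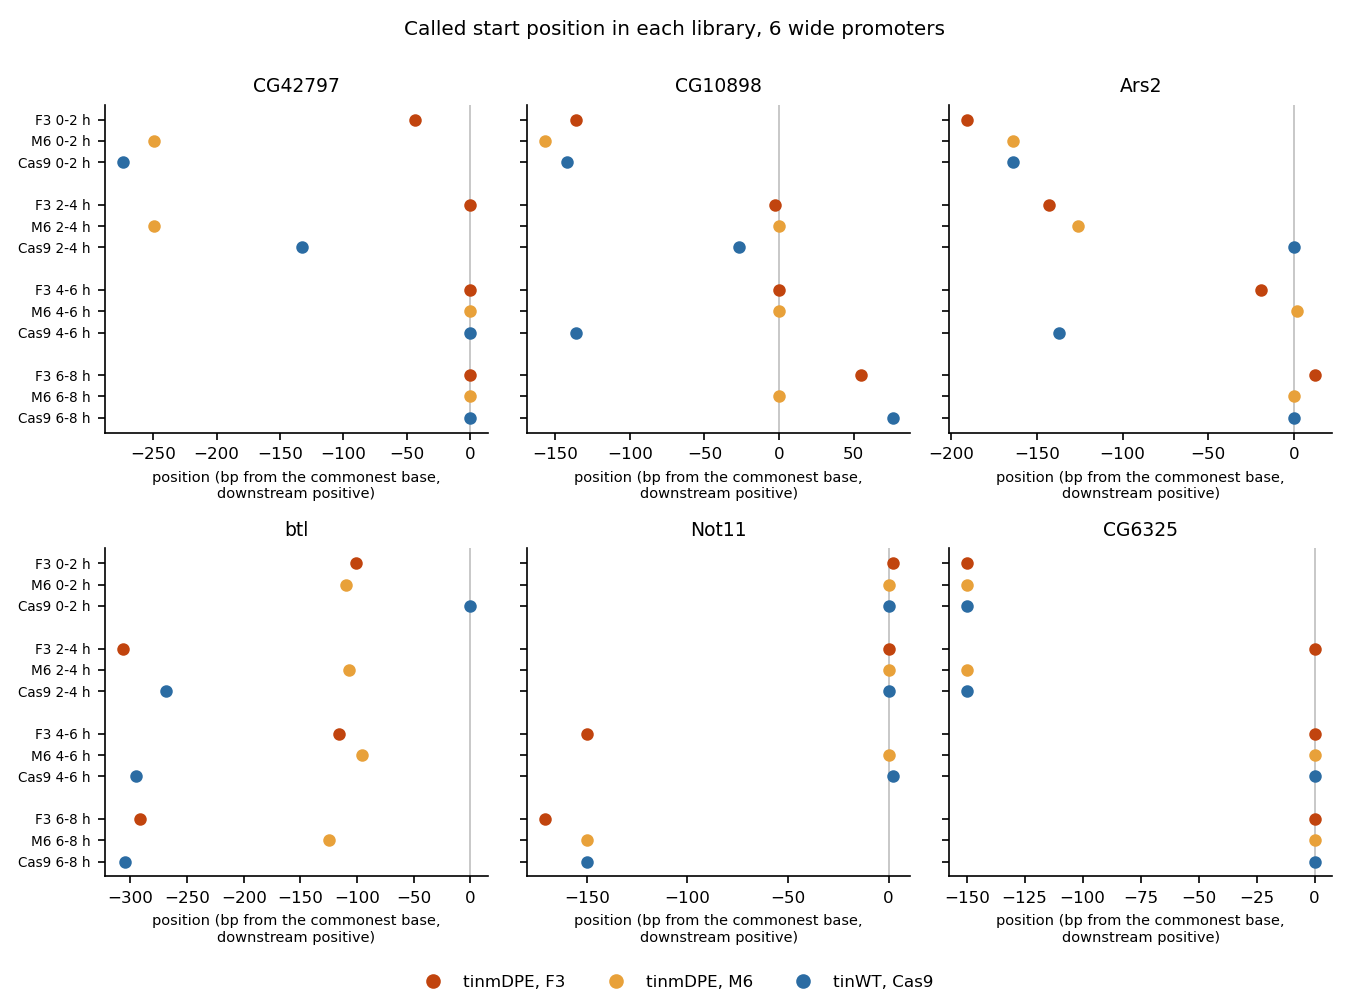
Called start position in each of the 12 libraries (x axis, bp from the commonest base, downstream positive) for the 6 promoters with the largest shift between windows in an order shared by the strains. CG6325 uses 2 bases 150 bp apart, while btl has 12 different bases.

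The deposited level sums the tags of the whole merged region, so it does not separate the positions within it. Of the 15 promoters that moved downstream in all 3 strains, 0 rose and 0 fell in level between 0-2 and 6-8 h, with a median log2 difference of -0.41. Of the 6 that moved upstream 1 fell (median -0.55), and of the 23 that stayed within 10 bp 4 rose and 4 fell (median -0.45). By the same limma test 28.6% of all wide promoters, 29.3% of other promoters and 17.4% of all regions changed. The groups of 15 and 6 are too small to set against those shares.

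The position difference between genotypes was largest at asRNA:CR44030, an antisense RNA gene on chromosome 4. Both tinmDPE lines used the same base at 2-4, 4-6 and 6-8 h, and lay at -35 bp (F3) and +11 bp (M6) at 0-2 h. The tinWT bases were at +104, +282, +279 and +160 bp in the 4 windows in order, so the genotypes did not overlap. As asRNA:CR44030, Sas-6, kra and Madm were picked for large genotype differences of constant sign, lack of overlap and unadjusted p are description there. The mean difference, tinmDPE minus tinWT, was -209 bp. Its exact permutation p of 0.0123 was the smallest the 81 assignments can give, and the adjusted p was 1. Every one of these bases lies in an annotated exon of the RNA itself, 40 to 357 bp from its start.

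The next differences that kept their sign in all 4 windows were smaller. Sas-6, which encodes the centriole cartwheel protein, had a mean difference of -72.1 bp that came from M6 at 0-2, 4-6 and 6-8 h (-208, -208 and -148 bp), while F3 and tinWT were called between -14 and +1 bp in every window. At kra, a translation regulator gene whose region lies on the opposite strand, tinmDPE lay further downstream by 69.2 bp on average (exact permutation p = 0.0494, adjusted p = 1). At Madm, which encodes an adaptor protein, the 53.9 bp came from M6 at +151 bp at 0-2 and 6-8 h. Over the 124 promoters the median size of the genotype difference was 23.9 bp and that of the difference between the 2 tinmDPE lines 15.8 bp. The largest line differences of constant sign were at CG10376, where F3 minus M6 averaged -78.0 bp, and at DCP1, which encodes a decapping factor, where it averaged -9.75 bp.

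**Figure D3:**
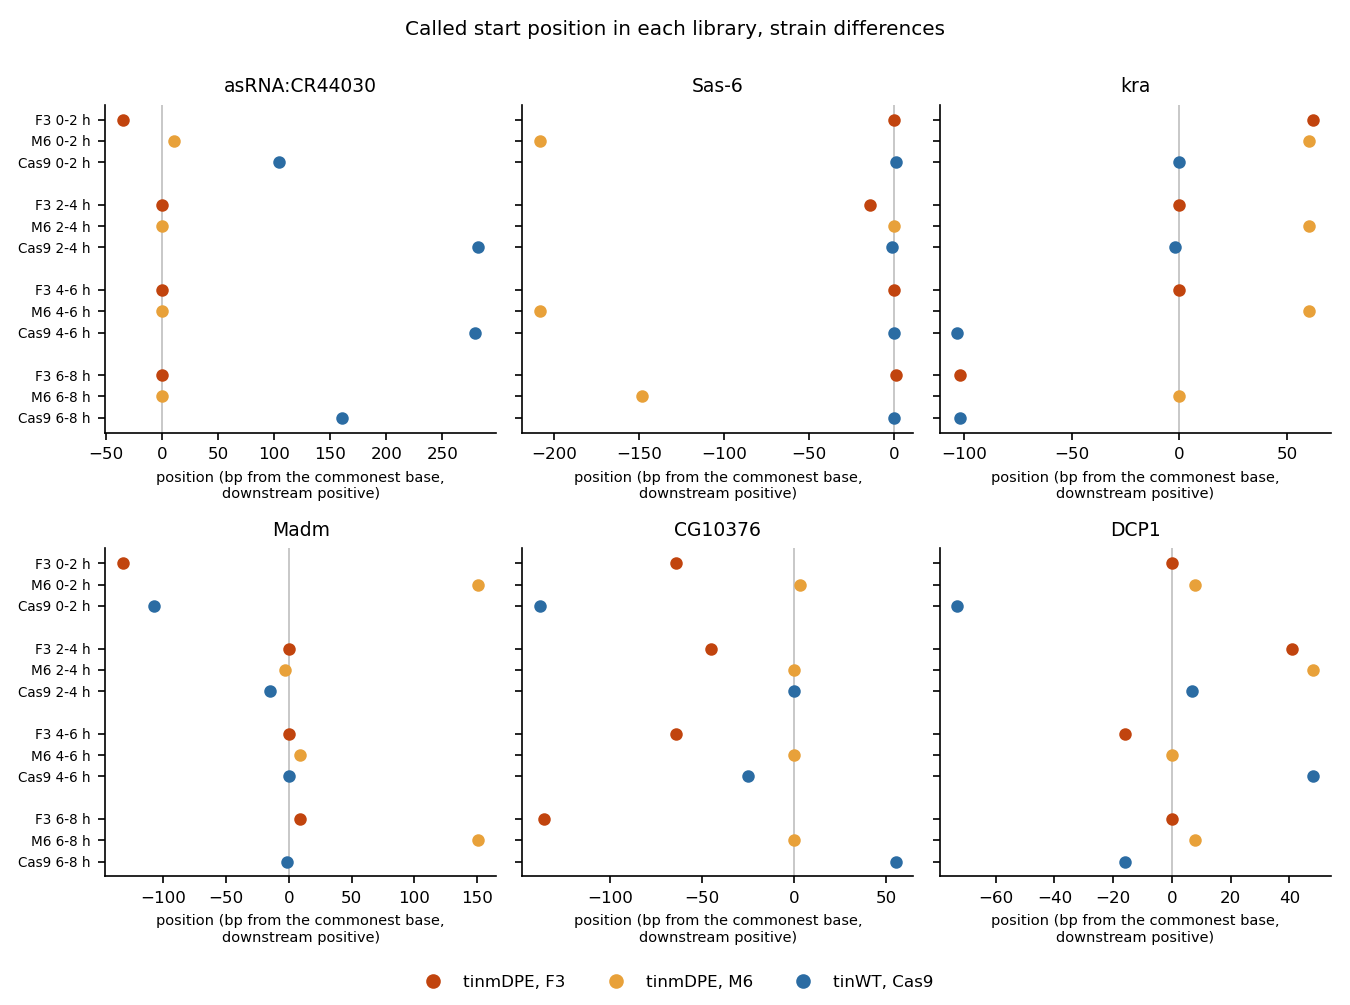
Called start position in each library (x axis, bp from the commonest base, downstream positive) for the promoters with the largest difference of constant sign over the 4 windows between genotypes (asRNA:CR44030, Sas-6, kra, Madm) or between tinmDPE lines (CG10376, DCP1). Only asRNA:CR44030 among them separates the tinmDPE libraries from the tinWT libraries in all 4 windows.

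Levels changed with time in many wide promoters. With limma on the deposited log2 values and the strain as block, 335 of 1108 (30.2%) changed over the 4 windows at an adjusted p under 0.05, against 19.9% of all regions and 31.4% of other promoters. Between 6-8 and 0-2 h, 184 rose and 133 fell (16.6% and 12%), against 9.88% and 7.5% of all regions and 17.4% in either direction. The share in either direction was 28.6% of wide promoters and 29.3% of other promoters. All 133 that fell were lower at 6-8 h in 3 of 3 strains, and 183 of the 184 that rose were higher in 3 of 3. The same libraries gave the calls, so this agreement is description and adds no support. The same holds for the lack of overlap between windows or genotypes at the genes named below for a level difference. In whole embryos, fewer cells of a type and less RNA per cell cannot be told apart. Without F3 no region passed with limma in either direction (329 wide promoters at an unadjusted p under 0.05), and without M6 or tinWT 138 and 174 wide promoters passed.

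Rises and falls were unevenly spread over the strands. Of the 395 wide promoters on the strand opposite the named gene, 115 rose (29.1%) and 4 fell (1.01%) at 6-8 h against 0-2 h. Of the 706 on the gene strand, 68 rose (9.63%) and 129 fell (18.3%). Other promoters gave 14.7% up and 2.36% down on the opposite strand, and 14.9% up and 19.4% down on the gene strand. The median log2 difference of opposite-strand wide promoters was 0.83 in F3, 0.69 in M6 and 0.75 in tinWT, and on the gene strand it was -0.29, -0.17 and -0.38. A region entered the set through the libraries in which it was called, and opposite-strand wide promoters were called at 6-8 h in 64.1%, 65.6% and 61.5% of cases in F3, M6 and tinWT, against 16.5%, 17.2% and 11.4% at 0-2 h. Calls at the later windows thus helped to choose them, and their shares are a description that is not set against those of other promoters.

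Consecutive windows gave fewer calls. Between 2-4 and 0-2 h, 59 wide promoters rose and 51 fell (background 4.22% and 2.44%, in all 6.67%), but with each library centred on its median 32 rose and 65 fell, and without the tinWT 2-4 h library 9 rose and 20 fell. Between 4-6 and 2-4 h, 5 rose and 22 fell (background 0.386% and 1.72%, in all 2.11%), and without the tinWT 2-4 h library 39 changed, against 29 at 2-4 against 0-2 h. Between 6-8 and 4-6 h, 3 rose and 0 fell (background 0.284% and 0.229%, in all 0.513%). For these 3 steps no wide promoter passed with limma once any 1 strain was left out, with 75 to 327 at an unadjusted p under 0.05.

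The largest rises at 6-8 h against 0-2 h were at lncRNA:CR44565, pnut, jigr1, asRNA:CR45257 and Alk. The level of lncRNA:CR44565 was 5.77, 5.58 and 5.89 at 6-8 h in F3, M6 and tinWT, against 3.0, 2.36 and 3.07 at 0-2 h, a log2 difference of 2.94 ± 0.31 (SE; limma, adjusted p = 1.27e-05). It was not called at 0-2 h, used +140 bp in F3 and +97 bp in tinWT at 2-4 h, and used 1 base in all 6 libraries after that. The region named for pnut, a septin gene, lies on the opposite strand and reached 7.43, 7.15 and 8.97 at 6-8 h, against 4.92, 4.66 and 5.33 at 0-2 h (2.88 ± 0.33, SE; limma, adjusted p = 2.62e-05). All 6-8 h libraries lay above all 0-2 h libraries in both.

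Alk, a receptor tyrosine kinase gene of the visceral mesoderm, had a log2 difference of 2.65 ± 0.45 (SE; limma, adjusted p = 0.000611) and used 1 base in 8 of 11 libraries. The opposite-strand region of jigr1 rose by 2.81 ± 0.41 and asRNA:CR45257 by 2.79 ± 0.33 on the log2 scale (SE). The call of each of the 5 was lost without F3, and that of Alk also without M6.

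The largest falls were at CG7091, ovo, fs(1)N, CG6084 and CG4476, all on the gene strand. CG7091 had levels of 2.38, 1.87 and 1.65 at 6-8 h in F3, M6 and tinWT, against 7.25, 6.62 and 6.57 at 0-2 h, a log2 difference of -4.85 ± 0.39 (SE; limma, adjusted p = 1.56e-06). Its start was called at 3 bases in its 4 libraries, with the 0-2 h calls at 0, +106 and +71 bp. The gene ovo, a zinc-finger factor needed in the female germ line, had levels of 3.0, 3.08 and 2.36 at 6-8 h, against 6.78, 6.36 and 7.66 at 0-2 h (-4.12 ± 0.46, SE; limma, adjusted p = 2.08e-05). The groups did not overlap in either gene.

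The promoter of fs(1)N, a gene of the eggshell and of terminal patterning, fell by 4.11 on the log2 scale. CG6084, annotated in RefSeq as the aldo-keto reductase Akr1B, fell by 4.00, and CG4476 by 3.80. In fs(1)N the 5 calls used 5 different bases. Each of these calls too was lost without F3.

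**Figure D4:**
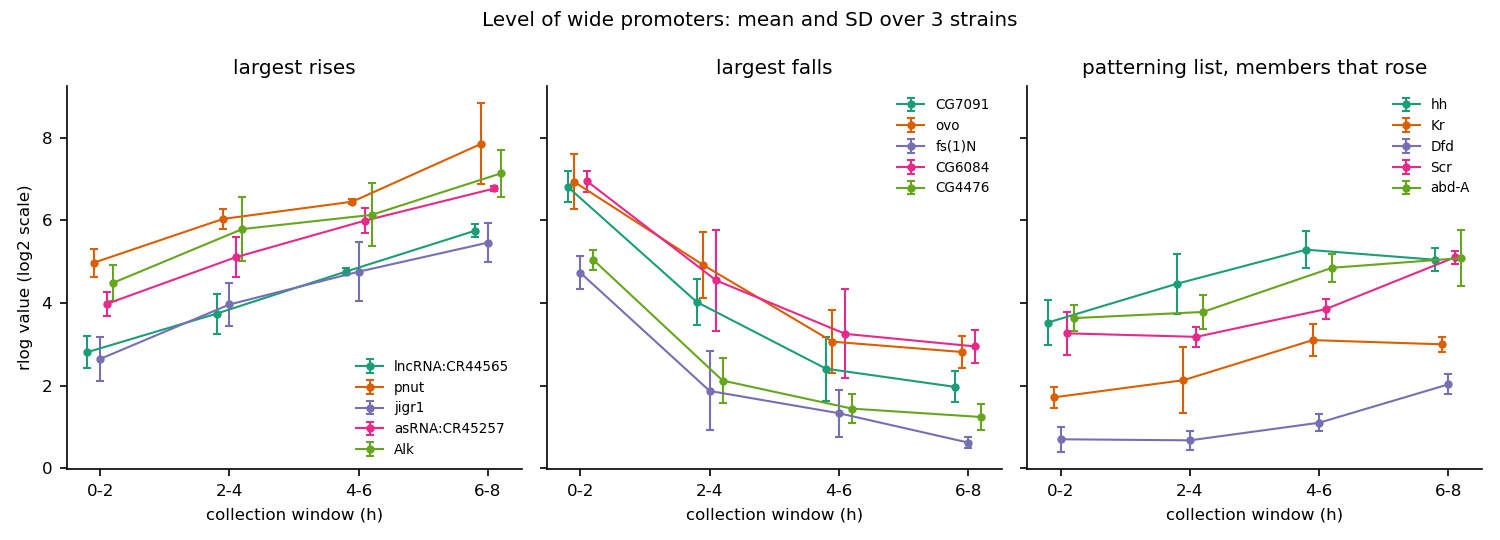
Deposited regularized log2 level (y axis) of wide promoters by window (x axis), as mean and SD over the 3 strains. The panels hold the largest rises, the largest falls and the members of the patterning list that rose. CG7091 had a mean of 1.97 at 6-8 h, below its 0-2 h mean of 6.81.

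Gene groups took unequal shares of the wide promoters. Of 10710 genes with a promoter region 9.65% had a wide one. Among cytoplasmic ribosomal protein genes it was 3 of 86 (3.49%), and all 3 of those regions (RpL38, RpL41 and RpS4) lay on the opposite strand, leaving 0 of 86 on the gene strand, where the share over all genes was 6.85%. Mitochondrial ribosomal protein genes had 5 of 69, proteasome genes 3 of 37, translation factors 3 of 43, respiratory chain genes 4 of 59, chromatin genes 2 of 15 and maternal regulators 2 of 17.

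Patterning and fate regulators had wide promoters in 14 of 51 genes (27.5%). On their own strand this was 2 of 50 (4.00%, against 6.85% of all genes) and on the opposite strand 12 of 41 (29.3%, against 9.80%). The 2 on the gene strand were the Hox genes Scr and abd-A. The 12 others were regions named for Abd-B, Dfd, Kr, SoxN, hb, hh, l(1)sc, pb, pnr, tup, twi and zfh1. At 6-8 h against 0-2 h, 5 of the 14 rose, 0 fell and 9 did not pass, where 16.6% of all wide promoters rose and 12% fell, against 9.88% and 7.5% of all regions. The 14 had a median log2 difference of 0.72, and the median of all wide promoters was 0.08 and of all regions -0.08. As 12 of the 14 lay on the opposite strand, the closer reference is the opposite-strand wide promoters. Their median was 0.73, and 29.1% of them rose and 1.01% fell. The values of the 14 are therefore not read as a trait of patterning genes.

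On the gene strand, Scr had a level of 5.11, 5.25 and 4.95 at 6-8 h in F3, M6 and tinWT, against 2.82, 3.85 and 3.12 at 0-2 h (1.84 ± 0.35, SE; limma, adjusted p = 0.00138). The level at abd-A rose by 1.45 ± 0.36 (SE; limma, adjusted p = 0.0106). On the strand opposite the gene, the regions of hh, a secreted segment polarity signal, Dfd, a head Hox gene, and Kr, a gap gene, rose by 1.52, 1.33 and 1.28 (limma, adjusted p = 0.0104, 0.0124 and 0.0301). The calls of hh, Dfd and Kr were lost without any 1 of the 3 strains, that of Kr also under quantile normalization, that of abd-A without F3 or M6, and that of Scr without F3. The region of twi, the mesoderm regulator, used +107 bp in F3 and +166 bp in tinWT at 6-8 h, against 0 and +6 bp at 2-4 h, at a level difference of 0.76 (adjusted p = 0.134). The region of hb, a gap gene, used -222 bp in F3 and tinWT but +21 bp in M6 at 6-8 h, against 0 bp in all 3 strains at 2-4 h.

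Of the 2 maternal regulators, smg, which encodes an RNA-binding repressor of maternal mRNA, had levels of 4.14, 3.85 and 3.88 at 6-8 h in F3, M6 and tinWT, against 6.96, 6.78 and 7.12 at 0-2 h (-2.99 ± 0.34, SE; limma, adjusted p = 2.08e-05). Its bases at 6-8 h were at -156 bp in F3 and tinWT and at 0 bp in M6, where only tinWT was called at 0-2 h, at 0 bp. Its call too was lost without F3. The region of osk was called in 2 libraries and had a log2 difference of -1.39 (adjusted p = 0.163).

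Few levels differed by genotype when strain was left out of the fit. With limma and the window as covariate, 1 wide promoter was higher and 1 lower in tinmDPE than in tinWT, against 0.175% and 0.148% of all regions, together 0.323%, and 111 wide promoters had an unadjusted p under 0.05. With the strain as a correlated replicate block 18 passed, with 179 at the unadjusted threshold. Between F3 and M6, 0 wide promoters passed with limma (background 0.00218%), with 44 at the unadjusted threshold. As genotype is also strain here, these are strain differences as much as genotype differences.

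Bap111, which encodes a subunit of the Brahma chromatin remodelling complex, was the lower one. At 0-2, 2-4, 4-6 and 6-8 h its levels were 6.41, 5.78, 4.82 and 5.18 in F3 and 6.23, 5.94, 5.39 and 4.96 in M6, against 8.45, 6.95, 7.51 and 7.40 in tinWT. All tinmDPE libraries lay below all tinWT libraries (log2 difference -1.99 ± 0.24, SE; limma, adjusted p = 0.000588). Its start differed as well: the 4 tinWT libraries shared 1 base, which no tinmDPE library used, and the 7 tinmDPE calls were at -40 to +91 bp from it. The call was lost without F3 or without M6.

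The region of lncRNA:CR44918, on the strand opposite that gene, was the higher one. Its levels in window order were 4.73, 5.85, 5.07 and 5.54 in F3 and 3.76, 5.10, 5.03 and 4.96 in M6, against 2.56, 3.80, 3.97 and 3.16 in tinWT (log2 difference 1.63 ± 0.27, SE; limma, adjusted p = 0.00999). The genotypes overlapped across windows, since M6 at 0-2 h was below tinWT at 4-6 h. Its base was the same in 6 of 7 tinmDPE calls. In tinWT the base was at -24 bp at 2-4 h, near the tinmDPE base, and at +113 bp at 4-6 and 6-8 h. This call was lost without F3, without M6, and without the tinWT library of 2-4 h or of 6-8 h.

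At the commonest base, each core promoter word searched had a lower share in wide than in other promoters. The rule chose promoters with spread calls, whose commonest base can rest on few libraries or on a tie, so these shares are description. An initiator (TCAGT or TCATT, its A within 5 bp of the commonest base) was present in 11.6% of wide promoters, against 19.1% of other promoters. A TATA box (TATAAA or TATATA, starting 33 to 28 bp upstream) was present in 2.71% against 5.00%. A DPE (the words AGAC or GGAC, or else the words AGTC or GGTC, starting at +28 of such an initiator A) was present in 0.632% against 2.37%. The TCT initiator of ribosomal protein genes (CCTTT or TCTTT, its second letter within 5 bp) was present in 2.17% against 2.91%. A DRE (ATCGAT, its own reverse complement, within 100 bp upstream) was present in 10.7% against 13.2%, and GAGAG on either strand in 19.3% against 20.2%. The DPE word requires the initiator by construction, and GAGAG is the core of the GAGA factor's site.

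Over any called base of a promoter, of which wide promoters have more, the order changed: an initiator was found in 20.7% of wide and 21.2% of other promoters, a DRE in 20.1% against 14.2%, GAGAG in 35.2% against 21.7%, a TCT initiator in 8.21% against 4.06%, a TATA box in 6.23% against 5.63% and a DPE in 1.08% against 2.44%.

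The shares at the commonest base differed between the strands. On the gene strand an initiator was found in 14.3% of wide promoters, against 23.7% of others, and DRE in 14.3% against 15.4%. On the opposite strand the initiator shares were 6.84% and 7.69%, DRE was found in 4.30% against 7.79%, and GAGAG in 25.6% against 22%.

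The outermost bases differed in DRE. It preceded the most upstream base of a wide promoter in 13.6% and the most downstream base in 4.60%, while an initiator lay at 7.76% and 9.12% and at both ends in 9 promoters. GAGAG preceded 18.4% of upstream and 17% of downstream bases. By window, DRE preceded 18.1% of the positions called at 0-2 h and 10.9%, 11% and 12.5% of those called at 2-4, 4-6 and 6-8 h. Over the same promoters called in both windows, however, the 6-8 and 0-2 h shares were 18.2% and 19.6% in F3, 15.9% and 15.0% in M6, and 16.9% and 20.8% in tinWT. Within the same promoters the difference was smaller, and in M6 it had the other sign.

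**Figure D5:**
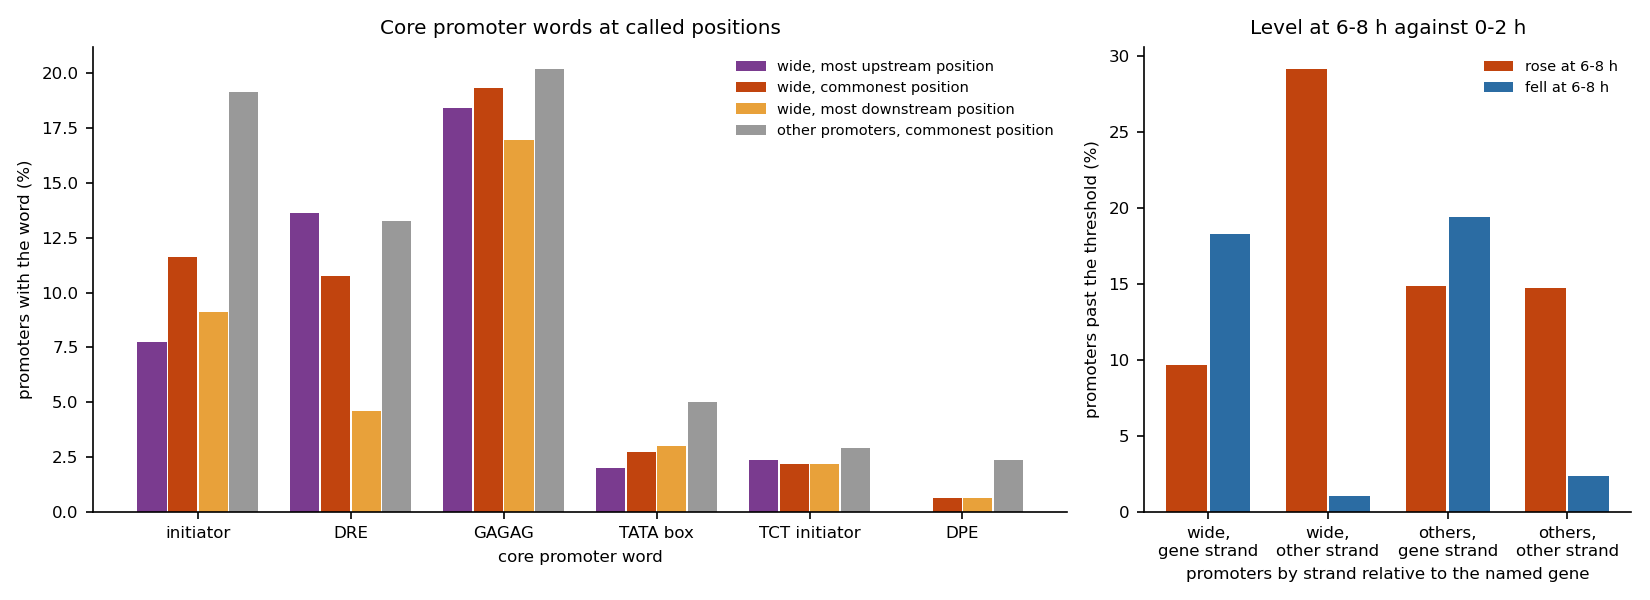
Left, percent of promoters with each core promoter word at the most upstream, commonest and most downstream called base of the 1108 wide promoters and at the commonest base of the 16990 others; initiators were at 11.6% of wide and 19.1% of other promoters. Right, percent of promoters whose level rose or fell at 6-8 h against 0-2 h (limma, adjusted p under 0.05) by strand relative to the named gene; 29.1% of opposite-strand wide promoters rose and 1.01% fell.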

How the data were processed

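Per the labels' protocols, short capped RNA of 18 to 65 nt was selected from total RNA and sequenced. HOMER, STAR 2.7.10a, edgeR and the dm6 build are named in the submitters' processing notes. Per the file headers, the authors used HOMER to merge, strand by strand, the starts called in each of 12 csRNA libraries, and the merged table carries the authors' score and called positions. The caller's thresholds are not given in the sources used here. The authors quantified tags on the same strand at a fragment length of 1 as regularized log2 values (rlog), per the file headers, so levels of weak regions are shrunk and no counts were used. The annotation class and gene symbol are the authors'. The 12 input libraries were not analysed here.

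Both tables were matched on coordinates and strand, with 0 columns of values left out. Promoter regions of at least 250 bp were taken. Several positions in 1 library were averaged. The commonest base is the one called in most libraries, and at a tie the one of lowest coordinate. limma 3.58.1 (R 4.3.3, trended variance prior) was fitted to all 45839 regions with Benjamini-Hochberg adjustment at 0.05, with strain as block for windows and window as covariate for genotype. Same-strain libraries share a line. Their deviations from window means correlated at 0.154 in tinWT (Cas9), 0.0643 in F3 and 0.0669 in M6, against -0.0475 between strains. Positions were tested by exact permutation. In simulated data with 200 regions shifted by 2 log2 units, the window fit recovered 182 (14 false calls) and the genotype fit 198 (12 false calls). The simulated noise was independent between libraries and held no strain effect. Those false calls therefore do not cover calls that differences between lines would give. Sequence and annotation came from RefSeq Release 6.

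Genes named singly were the 6 widest, those with the largest position shift shared by strains or of constant sign between genotypes or lines, the largest level changes shared by strains, the genotype calls and those nearest 250 bp. The patterning and maternal examples, the tin promoter, the split by strand and the list of shared shifts were added after their values were seen. Members and lists were chosen with earlier results of these data known. Alternatives were other scaling, a filter on low values, no variance trend, no block, libraries left out, other widths and other word settings.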

Additional observations from a re-analysis of the deposited data

Results flagged for a closer look

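The time course of the level differed between tinmDPE and tinWT in 7 wide promoters by a limma F test of genotype and window together. The share was 0.632%, against a background of 4.95% of all regions. The adjusted p was 0.0231 at BEAF-32 (an insulator protein gene), 0.0291 at cta (a G protein subunit gene), 0.0335 at rpk (an ion channel gene), 0.0335 at Graf, 0.0349 at Vajk1, 0.0418 at UK114 and 0.0440 at MFS14. BEAF-32 had 5.68 and 5.53 in F3 and M6 at 2-4 h, against 3.47 in tinWT, and 4.08 and 4.05 at 4-6 h, against 5.07. The tinWT 2-4 h value was the lowest of its window in rpk, cta, UK114, BEAF-32 and Graf and the highest in Vajk1 and MFS14. That is the library that stood apart, and without it 0 wide promoters passed, with 72 at an unadjusted p under 0.05 and adjusted p of 0.426 to 0.986 for the 7. No wide promoter passed this test with limma on regions above the 25th percentile or without the variance trend, with 106 and 167 at an unadjusted p under 0.05.

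Positions moved by at least 50 bp one way in both tinmDPE lines and the other way in tinWT in 3 promoters between 2-4 and 0-2 h (CSN4, CG5498 and Nup160). There were 11 between 4-6 and 2-4 h, 3 between 6-8 and 4-6 h (CG3198, CRIF and CG14457) and 1 between 6-8 and 0-2 h. The 11 were Galphai, CG33095, wcy, Psf3, Drice, Ars2, CG4768, miple2, Ipk1, Nup160 and CDK2AP1. Galphai moved by 109 bp in F3 and in M6 and by -109 bp in tinWT. The 1 over the whole course was Graf, which moved by -200 bp in F3, -191 bp in M6 and 219 bp in tinWT. These differences were not tested, and those of 2-4 against 0-2 h and of 4-6 against 2-4 h use the library that stood apart.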

How the results depend on the processing

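The counts of level changes over all windows and at 6-8 against 0-2 h rested on all 3 strains: leaving out 1 strain gave 0 to 78 and 0 to 174 wide promoters, 0 in both cases without F3. Between consecutive windows every such count was 0. With the tinWT 2-4 h library left out, chosen after seeing the data, 29 wide promoters changed at 2-4 against 0-2 h and 0 at 6-8 against 4-6 h. That last count was 5 under quantile normalization, 5 above the 25th percentile, 5 without the variance trend and 0 with no replicate block; the block changed no other count over windows by more than 1.5 times. The 2 genotype calls became 18 with the strain as a correlated replicate block, 0 without F3 or M6, and 1 to 3 without a tinWT library. The 7 genotype-by-window calls came to 0 with the low-value filter (25th percentile) to 0 with an untrended prior, and to 0 without the tinWT 2-4 h library. No position test passed under any alternative run; with no replicate block 17 promoters had an unadjusted p under 0.05 by window. A width of at least 200 or 300 bp gave a median span of 85 or 185 bp, by construction. The initiator share was 9.84% at the exact base and 20.7% at any called base, and DRE 20.1% at any called base. The balance of rises and falls at 2-4 against 0-2 h and the order of wide against other promoters in DRE, GAGAG, TATA and TCT words turned over under an alternative, as given beside those results. With 1 library per strain and window, the number of libraries limits the precision.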

Other observations

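Wide promoters of non-coding RNA genes numbered 102 (9.21%), against 7.09% of other promoters. The largest genotype difference in position was at such a gene (asRNA:CR44030). Of the 2 genotype calls in level, 1 was at a region named for such a gene (lncRNA:CR44918) but on the strand opposite it. At asRNA:CR44030 the levels at 0-2, 2-4, 4-6 and 6-8 h were 5.33, 7.16, 8.12 and 8.38 in F3 and 5.40, 5.20, 6.40 and 6.59 in M6, against 4.52, 4.87, 5.01 and 5.36 in tinWT. The log2 difference between genotypes was 1.63 and did not pass with limma (adjusted p = 0.129), and that of F3 minus M6 was 1.35 (adjusted p = 0.911).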
